A study of Mus musculus with 2 samples.

Results

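The Schlafen genes Slfn1, Slfn2, Slfn3, Slfn5, Slfn8 and Slfn9 were followed by symbol through single-cell RNA counts of mouse bone marrow, 6 of the 32285 genes listed. They were chosen by their UMI levels and shares of positive cells per library, population and interferon response, so these values are given as a description. The study sorted cells positive for CD122 and negative for lineage markers (Lin), NK1.1, Ncr1, c-kit and Sca-1, a gate that the labels call natural killer progenitors (NKP), from wild-type C57BL/6 mice (WT) and from Irf4-/- mice. Irf4 encodes a transcription factor that lymphocytes use when activated. There was 1 droplet 3' library per genotype. The sources used here give no age, sex or number of animals, no background of the Irf4-/- mice and no deleted part of Irf4.

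Schlafen proteins share a core domain that binds or cuts RNA. Slfn1 and Slfn2 are short members, Slfn3 is intermediate in size, and Slfn5, Slfn8 and Slfn9 are long members that add a helicase-like part. Slfn1 was named for slowing the growth of T cells, Slfn2 is needed for resting T cells to stay quiescent and survive, and several members are known to be induced by type I interferon, the antiviral cytokine.

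All 6 members lie on chromosome 11, within a cluster that spans 344 kb from 82942341 to 83286726 (GRCm38, the assembly behind mm10). Other genes lie among them, such as Slfn4 between Slfn1 and Slfn3. In order along the chromosome they are Slfn5 (82951349 to 82964840, plus strand), Slfn9 (82978390 to 82991830, minus), Slfn8 (83002158 to 83020810, minus), Slfn2 (83065112 to 83070678, plus), Slfn1 (83116849 to 83122670, plus) and Slfn3 (83191330 to 83215154, plus). The 300 bases around a start site, 250 before it to 50 after it, are shown for 4 members that were all higher in interferon-responding cells, to set promoters with and without a 10-base core of the interferon-stimulated response element side by side. The sequences are from RefSeq (GRCm38.p6), on the gene's own strand, for Slfn5 at chr11:82951852-82952151, Slfn9 at chr11:82991781-82992080, Slfn8 at chr11:83020761-83021060 and Slfn1 at chr11:83116570-83116869. Capitals mark a match to the core.
Slfn5: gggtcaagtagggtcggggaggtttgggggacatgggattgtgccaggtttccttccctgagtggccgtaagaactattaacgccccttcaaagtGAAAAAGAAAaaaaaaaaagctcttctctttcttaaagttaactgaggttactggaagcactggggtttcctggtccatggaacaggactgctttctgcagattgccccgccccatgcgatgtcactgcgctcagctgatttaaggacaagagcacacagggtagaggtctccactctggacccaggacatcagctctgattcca
Slfn9: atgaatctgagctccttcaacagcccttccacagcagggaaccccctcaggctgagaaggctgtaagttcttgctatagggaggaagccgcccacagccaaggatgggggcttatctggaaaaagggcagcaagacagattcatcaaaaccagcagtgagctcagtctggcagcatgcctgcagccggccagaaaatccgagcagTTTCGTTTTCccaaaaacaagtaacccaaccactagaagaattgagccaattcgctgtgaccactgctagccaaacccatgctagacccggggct
Slfn8: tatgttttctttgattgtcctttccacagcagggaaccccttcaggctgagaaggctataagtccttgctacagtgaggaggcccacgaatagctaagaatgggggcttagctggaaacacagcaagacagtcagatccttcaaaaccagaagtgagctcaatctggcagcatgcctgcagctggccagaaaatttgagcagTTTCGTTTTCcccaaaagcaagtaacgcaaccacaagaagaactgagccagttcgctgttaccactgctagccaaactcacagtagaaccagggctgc
Slfn1: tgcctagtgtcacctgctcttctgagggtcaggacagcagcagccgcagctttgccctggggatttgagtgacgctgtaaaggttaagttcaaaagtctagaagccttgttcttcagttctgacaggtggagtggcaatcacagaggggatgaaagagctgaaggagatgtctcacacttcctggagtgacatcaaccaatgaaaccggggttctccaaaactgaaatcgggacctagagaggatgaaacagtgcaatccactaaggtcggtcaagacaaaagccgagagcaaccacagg
The core searched was GAAA, any 2 bases, then GAAA, on either strand, so that the other strand reads TTTC, any 2 bases, then TTTC. It was present in 3 of the 6 members. In Slfn9 and Slfn8 the match was the same TTTCGTTTTC, beginning 45 and 48 bases before the start. RefSeq gives Slfn8 another start site, from which the same match begins 136 bases upstream. In Slfn5 the match was GAAAAAGAAA, 155 bases before the RefSeq start used and at the head of a run of A. That start lies downstream of the gene start given above, 82951349, which is from another gene annotation. The printed Slfn5 stretch, with the match at 82951947 to 82951956, therefore lies within the gene as given above. Of 27025 genes with a RefSeq promoter of this length, 3.99% held the core in at least 1 of their promoters. The letters TTCNNNGAA, the core of the gamma-activated site, were in 0 of the 6 members and in 9.55% of these genes. A match is a run of letters, not a shown binding site, and Slfn1, Slfn2 and Slfn3 without a match lack only these letters in this window.

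After removal of low-quality barcodes, 7955 cells remained in the library labelled Irf4-/- and 12367 in the library labelled WT, with median depths of 9540 and 7125 UMIs (unique molecular identifiers, each counting 1 captured transcript end). Of these, 84.1% and 90.1% carried at least 3 UMIs of the CD3 genes and at most 2 of the B cell genes Cd79a and Cd79b, and are called CD3-expressing cells. CD3 genes mark T cells rather than natural killer progenitors. In the CD3-expressing cells Il2rb, which encodes CD122, was detected in 93.5% and 80.6% of cells, and Ncr1 in 0.418% and 0.0718%. Irf4 had 803 UMIs in the library labelled Irf4-/- and 287 in the library labelled WT over all kept cells, which is 9.77 and 3.04 CPM (UMIs per 1000000 UMIs of the same cells). The Irf4 count therefore does not check the genotype, and the libraries are named by their labels. Were the labels exchanged, every ratio between the libraries would change sign, and this could not be checked here. With 1 library per genotype there is no replicate spread and no test, and all 95% intervals cover counting error only. The libraries shared 25 barcodes among kept cells. Where a pair of values is given below without labels, the library labelled Irf4-/- comes first.

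CD3-expressing cells with at least 2 UMIs of Trdc, the constant segment of the T cell receptor delta chain, were set apart first (847 and 1387 cells). Trac, of the alpha chain, was detected in 43.9% and 42.5% of them, against 97.7% and 94.4% of Cd8b1-positive Klre1-negative cells. Tcrg-C2, of the gamma chain, was detected in 68.6% and 53.9%, against 12.6% and 5.29%. Trbc2, of the beta chain, was in 97.3% and 95.5% of them and Sox13 in 0.118% and 0.288%, so they are called Trdc-positive rather than gamma-delta T cells. The rest were split by Cd8b1, the CD8 beta chain, and Klre1, a lectin-like receptor of natural killer and activated CD8 T cells. Cd8b1-positive Klre1-negative cells numbered 1605 and 5446, 24.0% and 48.9% of the CD3-expressing cells. Cd8b1-positive Klre1-positive cells numbered 1179 and 1033 (17.6% and 9.27%) and Cd8b1-negative Klre1-positive cells 1692 and 942 (25.3% and 8.46%). Cells negative for both numbered 1369 and 2332 (20.5% and 20.9%). Ratios over all CD3-expressing cells are not adjusted for these shares unless stated. B cells (1043 and 909) were split into precursor B cells, with at least 2 UMIs of the surrogate light chain genes Vpreb1, Vpreb2 and Igll1, and other B cells (779 and 896). The precursors numbered 264 in the library labelled Irf4-/- and 13 in the library labelled WT.

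Slfn1 was lower in the library labelled Irf4-/- and nearly absent from B cells. In CD3-expressing cells it had 5589 UMIs in the library labelled Irf4-/- and 11264 in the library labelled WT, 76.7 CPM (interval 74.7 to 78.8) and 129 CPM (126 to 131). The level was 1.68-fold lower in the library labelled Irf4-/-, a log2 ratio of -0.75 (-0.79 to -0.70). It was the 1 member at least 1.5-fold lower, where 4.71% of the 13372 genes with 20 or more UMIs were that much lower. The median log2 ratio was -0.03 over the 6 members and 0.01 over all those genes.

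Slfn1 kept this direction in each of the 5 populations of CD3-expressing cells. In Cd8b1-positive Klre1-negative cells it stood at 94.02 and 148 CPM, the highest of the 5 in both. Cd8b1-positive Klre1-positive cells had 75.7 and 119 CPM. Cd8b1-negative Klre1-positive cells had 74.3 and 106 CPM, and cells negative for both genes 72.5 and 103 CPM. The last 3 populations had overlapping intervals in the library labelled Irf4-/-. Trdc-positive cells had 51.0 CPM in the library labelled Irf4-/-, the lowest of its 5, and 105 CPM in the library labelled WT, where the interval overlapped those of both Cd8b1-negative populations. The log2 ratio between the libraries was -1.04 (-1.21 to -0.87) in Trdc-positive cells and between -0.66 and -0.50 in the other 4. The difference between these ratios was not tested. Taken by single markers, as all Cd8b1-positive and all Klre1-positive cells other than Trdc-positive ones, Slfn1 stood at 85.8 and 143 CPM in the former and at 75.0 and 114 CPM in the latter.

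**Figure D1:**
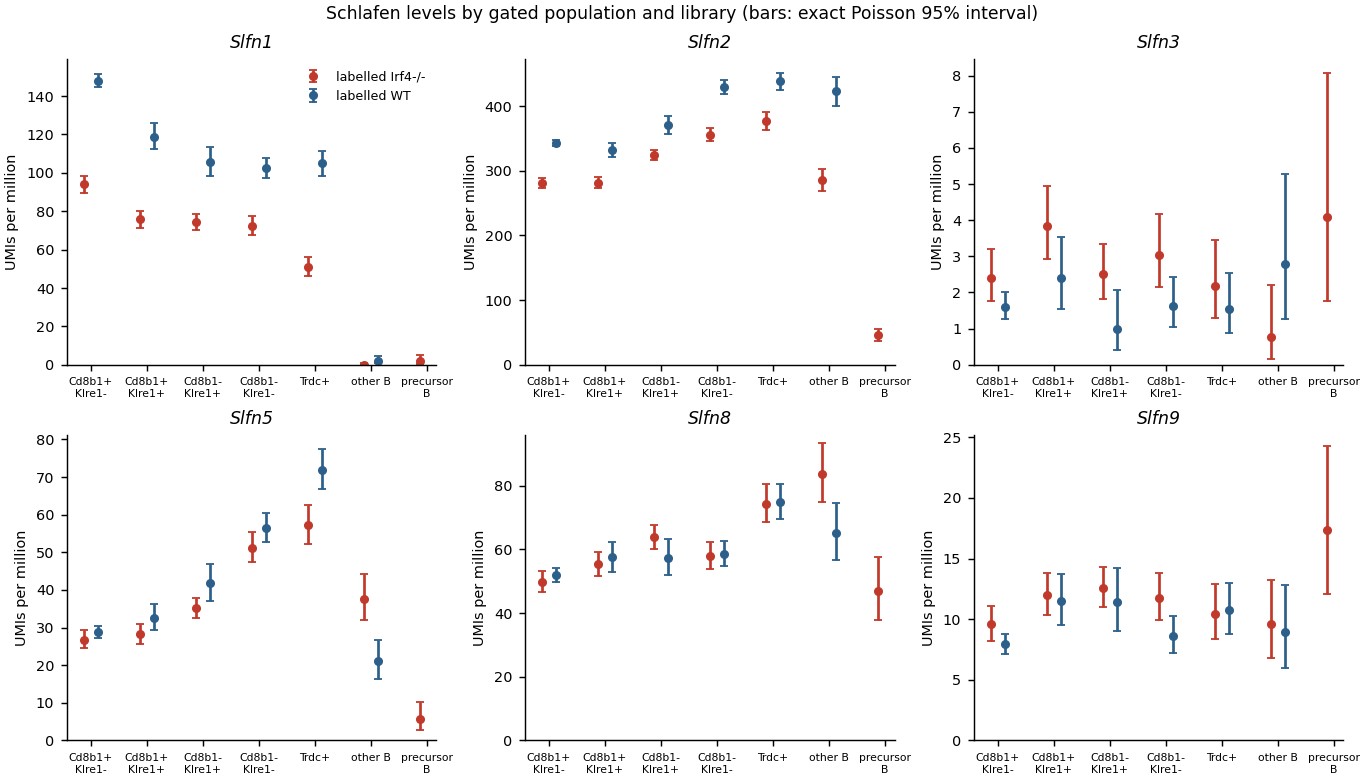
Level of each Schlafen gene (y axis, CPM, own scale per panel) in the 5 populations of CD3-expressing cells and in B cells (x axis), with points for each library and bars for the exact Poisson 95% interval. Precursor B cells are drawn for the library labelled Irf4-/- alone, since the other library held 13. Slfn1 is near 0 in B cells, while Slfn5 is highest in Trdc-positive cells, at 57.2 and 72.0 CPM.

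In other B cells Slfn1 had 0 UMIs in the library labelled Irf4-/- and 7 UMIs in the library labelled WT. CD3-expressing cells were at least 101-fold higher in the former, counted against a floor of 3 UMIs over the group, and 59.6-fold higher in the latter (log2 ratio 5.90, 4.85 to 7.21). No other member differed by 1.5-fold in the same direction in both libraries, where 12.4% of genes were that much higher in CD3-expressing cells and 24.7% that much lower. With each cell thinned to 2000 UMIs, Slfn1 was detected in 0 of 765 other B cells (exact upper limit 0.481%) and in 0.348% of 861. Before thinning it was in 0 of 779, and by a floor of 3 cells the share of cells with a UMI could be up to 0.385%. Cd3d, which B cells lack and which the gate capped, gave 0.915% and 2.32% in the thinned cells, above the Slfn1 shares. The Cd3d share is not scaled to the level of Slfn1, so it does not set the background of free RNA for Slfn1. After the same thinning Slfn1 was detected in 13.5% and 21.3% of CD3-expressing cells. Before thinning these shares were 43.6% and 52.4%, with median depths of 9908.5 and 7248 UMIs.

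Slfn2, the other short member, was detected in T and B cells. In CD3-expressing cells it had 22995 and 32283 UMIs, 316 and 369 CPM, a log2 ratio of -0.23 (-0.25 to -0.20). Each of the 5 populations was lower in the library labelled Irf4-/-, with log2 ratios from -0.28 to -0.19. Slfn2 was highest in cells without Cd8b1 or Klre1 (356 and 430 CPM) and in Trdc-positive cells (377 and 439 CPM), and lowest in both Cd8b1-positive populations (282 and 281 CPM without and with Klre1 in the library labelled Irf4-/-, 343 and 332 CPM in the other). Other B cells held 1127 and 1370 UMIs, 285 and 423 CPM, a log2 ratio of -0.57 (-0.68 to -0.45). Among other B cells under 5000 UMIs the Slfn2 ratio was -0.70 (-0.84 to -0.56). It was 0.12 (-0.15 to 0.38) at 5000 to 10000 UMIs and 0.26 (-0.21 to 0.74) over 10000 UMIs. In these deeper B cells the intervals thus included no difference. Precursor B cells of the library labelled Irf4-/- held 89 UMIs, 45.5 CPM, below the other B cells of that library.

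Over all CD3-expressing cells together, the Slfn2 difference between the libraries turned in the middle one of the fixed depth bands. Among CD3-expressing cells of 5000 to 10000 UMIs, 3240 and 8059 cells with median depths of 8321 and 7216 UMIs, Slfn2 stood at 391 and 375 CPM. The log2 ratio was 0.059 (0.025 to 0.093). Slfn1 in the same cells stood at 78.9 and 135 CPM, a log2 ratio of -0.77. In cells under 5000 UMIs the Slfn2 ratio was -0.33 and in cells over 10000 UMIs -0.22, while the Slfn1 ratio was -0.88 and -0.66. Over all CD3-expressing cells together, Slfn1 was thus lower in the library labelled Irf4-/- in every depth band, and Slfn2 was not. Over 10000 UMIs the Slfn1 ratio was -0.14 (-0.45 to 0.18) in Cd8b1-negative Klre1-positive cells. In cells negative for both genes it was -0.21 (-0.54 to 0.13), so both intervals included no difference. In the remaining populations at that depth the Slfn1 interval lay below 0.

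**Figure D2:**
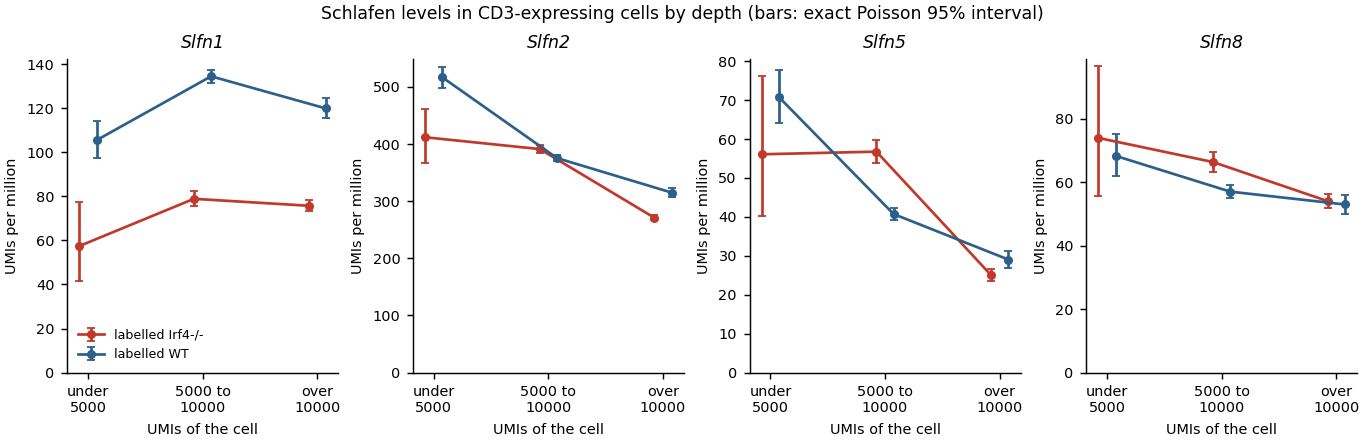
Level of Slfn1, Slfn2, Slfn5 and Slfn8 (y axis, CPM) in CD3-expressing cells split by the UMIs of the cell (x axis), with points for each library and bars for the exact Poisson 95% interval. The libraries stay apart for Slfn1 in all 3 bands, whereas the points for Slfn2 and Slfn5 change order between 5000 and 10000 UMIs.

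Slfn3 gave the fewest UMIs. It had 205 and 144 UMIs in CD3-expressing cells, 2.81 and 1.65 CPM, a log2 ratio of 0.77 (0.46 to 1.09). It was the 1 member at least 1.5-fold higher, where 6.51% of genes were. In the 5 populations it did not exceed 3.84 CPM. In cells over 10000 UMIs the Slfn3 ratio was 0.22 (-0.22 to 0.66), which includes no difference. Slfn3 and its neighbour Slfn4 share stretches of sequence, which could affect how reads from those stretches were counted.

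Slfn5, a long member, was highest in Trdc-positive cells and lowest in Cd8b1-positive cells. Trdc-positive cells held 57.2 CPM (52.1 to 62.6) in the library labelled Irf4-/- and 72.0 CPM (66.8 to 77.5) in the library labelled WT. Cells negative for Cd8b1 and Klre1 held 51.2 and 56.4 CPM, and the interval of the former overlapped that of the Trdc-positive cells. Cd8b1-negative Klre1-positive cells followed with 35.1 and 41.8 CPM, and Cd8b1-positive cells with and without Klre1 were lowest, at 28.3 and 26.8 CPM in the library labelled Irf4-/- and at 32.6 and 28.7 CPM in the other. Trdc-positive cells were above all other CD3-expressing cells by log2 ratios of 0.74 and 1.01. Slfn5 was the 1 member at least 1.5-fold higher there in both libraries, where 2.60% of genes were. In Cd8b1-positive Klre1-negative cells it was the 1 member that much lower than in other CD3-expressing cells, with log2 ratios of -0.59 and -0.85, where 4.81% of genes were.

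Slfn5 differed little between the libraries over all CD3-expressing cells, at 36.8 and 39.7 CPM (log2 ratio -0.11, -0.18 to -0.04). In cells of 5000 to 10000 UMIs the order was the reverse, 56.8 and 40.7 CPM, a log2 ratio of 0.48 (0.38 to 0.57). Without dividing cells the log2 ratio was -0.01. Other B cells gave 149 and 68 UMIs, 37.7 and 21.0 CPM, a log2 ratio of 0.84 (0.42 to 1.28), and Slfn5 was the 1 of 4 members with 20 UMIs there that was at least 1.5-fold higher, where 8.26% of genes were. The share of other B cells above the interferon threshold used below was 13.4% and 6.81%. Among the other B cells under that threshold the ratio was 0.83 (0.32 to 1.36).

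Slfn8 and Slfn9, a pair of long members beside each other, were detected in T cells and in other B cells. Slfn8 was higher in other B cells than over CD3-expressing cells in both libraries. Slfn8 ran from 49.8 CPM in Cd8b1-positive Klre1-negative cells to 74.3 CPM in Trdc-positive cells of the library labelled Irf4-/-, and from 51.9 to 74.8 CPM in the same populations of the library labelled WT. Over CD3-expressing cells it stood at 58.6 and 56.7 CPM, and the log2 ratio of 0.05 had an interval of -0.01 to 0.11. Other B cells held 83.7 and 65.1 CPM, a log2 ratio of 0.36 (0.11 to 0.62). Slfn9 stood at 11.3 and 9.05 CPM in CD3-expressing cells, a log2 ratio of 0.32 (0.18 to 0.46), and at 9.61 and 8.95 CPM in other B cells. In the middle depth band the Slfn9 ratio was 0.04 (-0.21 to 0.28). Transcripts of Slfn8 shared 6.37% of their 60-base windows with Slfn9, which could affect how reads from those stretches were counted. Slfn10-ps is not analysed here.

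**Figure D3:**
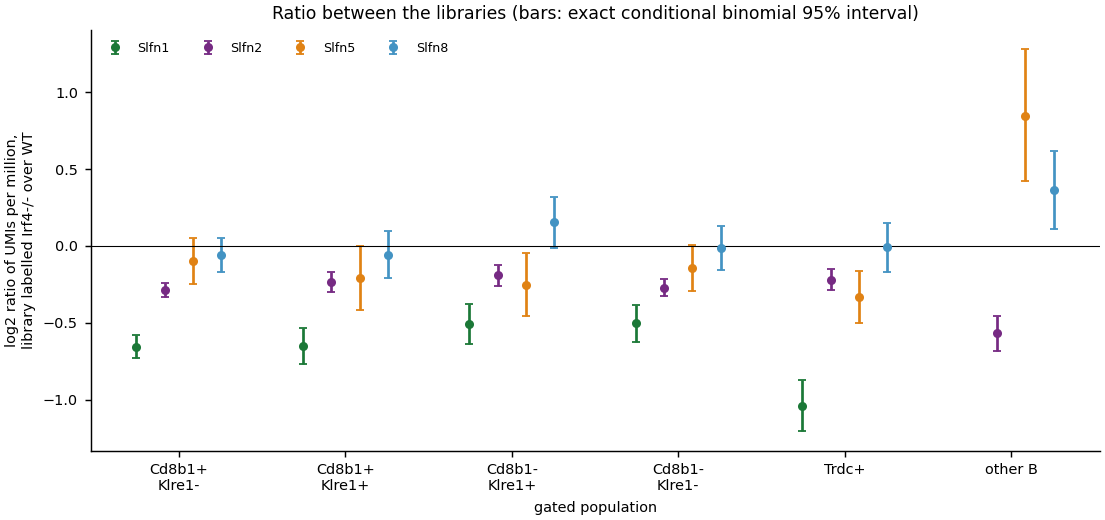
Log2 ratio of the CPM in the library labelled Irf4-/- to that in the library labelled WT (y axis), for Slfn1, Slfn2, Slfn5 and Slfn8 in each gated population (x axis), with bars for the exact conditional binomial 95% interval and a line at 0. Slfn1 lies below 0 in all 5 populations of CD3-expressing cells and lowest in Trdc-positive cells, and Slfn5 lies above 0 in other B cells alone, at 0.84. Slfn1 is not drawn in B cells, which held 0 and 7 UMIs.

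Interferon-responding cells were found with a score that held no Schlafen gene. It summed the UMIs per 10000 of 27 interferon-induced genes such as Isg15, Ifit1, Mx1 and Usp18, and the 5% of CD3-expressing cells with the highest score over both libraries, those above 30.8, are called interferon-high. They numbered 344 and 548 cells, 5.14% and 4.92% of the CD3-expressing cells. The threshold divides a continuous range, and 204 and 230 cells lay within 10% of it. Their median depth was 9078.5 UMIs against 9945 in other cells of the library labelled Irf4-/-, and 7043 against 7263.5 in the library labelled WT.

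Slfn5 differed most between interferon-high and other CD3-expressing cells. It had 706 UMIs in interferon-high cells of the library labelled Irf4-/-, 207 CPM against 28.4 CPM, a 7.28-fold difference (log2 2.86, 2.74 to 2.99). The library labelled WT gave 1144 UMIs there, 279 CPM against 27.9 CPM, a 10.0-fold difference (log2 3.32, 3.22 to 3.43). The interferon-high cells, about 5% of the CD3-expressing cells, held 26.3% and 32.9% of all Slfn5 UMIs. At 2000 UMIs a cell, Slfn5 was detected in 25.9% and 34.5% of interferon-high cells and in 6.19% of other cells of either library.

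Slfn8 and Slfn1 followed. Slfn8 stood at 173 CPM against 53.0 CPM in the library labelled Irf4-/- and at 193 against 49.98 CPM in the library labelled WT, 3.26-fold and 3.86-fold higher in interferon-high cells. Slfn1 stood at 223 against 69.5 CPM and at 371 against 117 CPM, 3.21-fold and 3.17-fold higher. The promoter of Slfn8 printed above holds the response element core and that of Slfn1 does not. Slfn2 stood at 543 against 305 CPM and at 625 against 356 CPM, 1.78-fold and 1.75-fold higher, and Slfn9 at 21.7 against 10.8 CPM and at 17.8 against 8.62 CPM. Slfn3 had 17 and 18 UMIs in interferon-high cells, and log2 ratios of 0.88 and 1.54. By this definition all 6 members were at least 1.5-fold higher in interferon-high cells of both libraries, where 4.47% of the 12224 genes with 20 or more UMIs were that much higher and 1.85% that much lower. The count was 5 when the highest 10% of cells were taken as interferon-high, or when cells were thinned to 2000 UMIs, since Slfn3 in the library labelled Irf4-/- then had log2 ratios of 0.55 and 0.21.

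The levels of Slfn1, Slfn2 and Slfn8 were higher in each bin of the score than in the bin below it. Over 5 equal bins of CD3-expressing cells Slfn1 stood at 57.2, 61.4, 64.6, 76.9 and 115 CPM in the library labelled Irf4-/-, and at 96.6, 106, 118, 129 and 216 CPM in the library labelled WT. Slfn8 went from 35.8 to 98.0 CPM and from 37.6 to 108 CPM between the lowest and highest bins. Slfn5 differed little over the lowest 3 bins, from 21.2 to 26.1 CPM and from 22.4 to 25.4 CPM, and reached 77.4 and 111 CPM in the highest. Slfn1 of the library labelled Irf4-/- was below that of the library labelled WT in every bin.

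**Figure D4:**
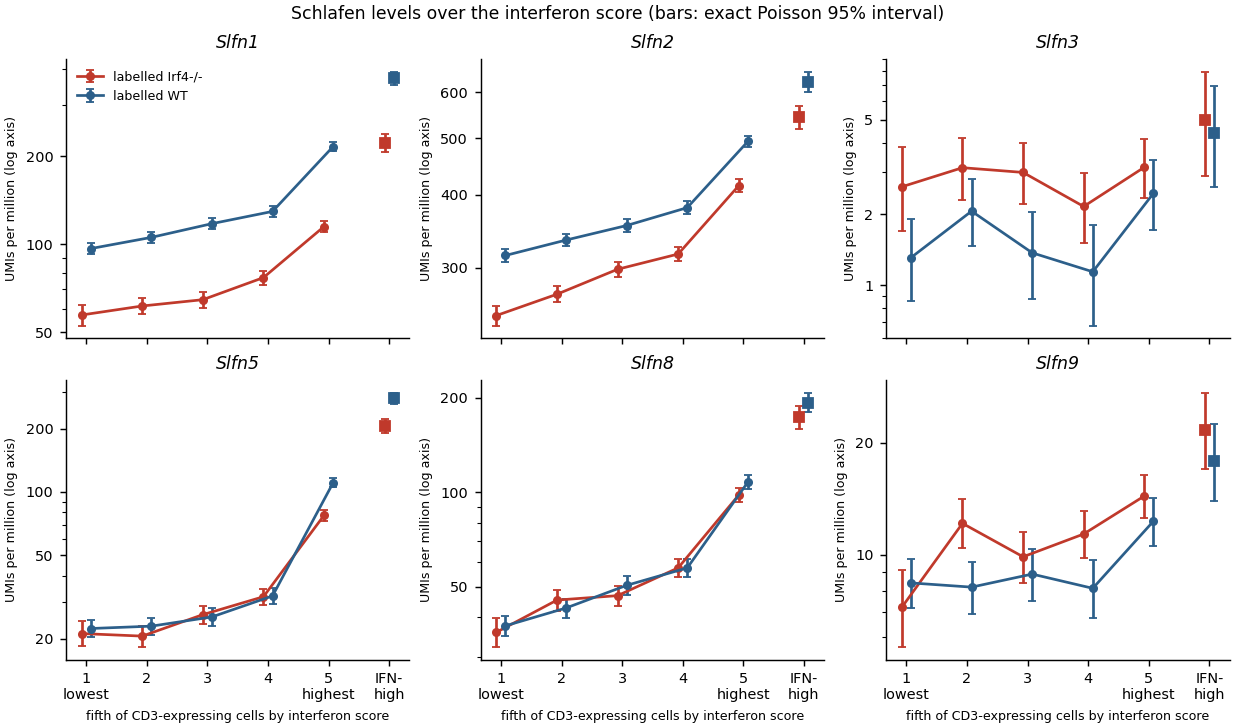
Level of each Schlafen gene (y axis, CPM, log axis) in 5 bins of CD3-expressing cells by interferon score (x axis, circles) and in the interferon-high cells (squares), with points for each library and bars for the exact Poisson 95% interval. Slfn5 stays low over the lower bins and reaches 207 and 279 CPM in interferon-high cells, while Slfn1, Slfn2 and Slfn8 are higher from bin to bin.

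Between the libraries, Slfn5 was apart among interferon-high cells, and Slfn1 among interferon-high and other cells. Among interferon-high cells the log2 ratio of the library labelled Irf4-/- over the library labelled WT was -0.43 (-0.57 to -0.30) for Slfn5, against 0.03 (-0.06 to 0.11) in the other CD3-expressing cells. For Slfn1 it was -0.73 in interferon-high cells and -0.75 in the others. For Slfn2 the pair of values was -0.20 and -0.23, and for Slfn8 -0.16 and 0.08. These differences between ratios were not tested. The median score of the interferon-high cells was 42.1 in the library labelled Irf4-/- and 45.3 in the library labelled WT. The 2 groups were thus not matched on the score.

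Slfn5, Slfn8 and Slfn2 were also higher in interferon-high Trdc-positive cells and other B cells. In Trdc-positive cells Slfn5 stood at 216 against 46.7 CPM and at 349 against 50.8 CPM, and 4 of the 5 members with 20 UMIs were at least 1.5-fold higher in both libraries, where 3.67% of genes were. Among other B cells, 104 and 61 were above the threshold. Slfn5 stood there at 113 against 28.0 CPM and at 103 against 15.8 CPM, Slfn8 at 186 against 70.5 CPM and at 221 against 55.2 CPM, and Slfn2 at 554 against 250 CPM and at 1010 against 385 CPM. These were 3 of the 4 members with 20 UMIs in other B cells, where 3.22% of genes were that much higher. Slfn1 had 0 UMIs in interferon-high B cells of either library.

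Within single cells Slfn5 and Slfn8 were seen together more often than their shares alone give. At 2000 UMIs a cell, Slfn8 was detected in 17.01% of Slfn5-positive and 10.4% of Slfn5-negative CD3-expressing cells of the library labelled Irf4-/-, and in 19.6% and 10.1% in the library labelled WT. In all, 82 and 165 cells held both, against 52.2 and 91.0 if the genes were independent. Outside interferon-high and dividing cells the Slfn8 shares were 11.9% against 10.3% and 13.5% against 9.40%.

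Dividing cells separated the members into opposite directions. CD3-expressing cells with at least 2 UMIs of the cycle genes Mki67 and Top2a numbered 514 and 365, 7.68% and 3.28% of the CD3-expressing cells. Slfn5 stood at 6.01 CPM in dividing against 41.7 CPM in non-dividing cells of the library labelled Irf4-/- (60 and 2620 UMIs), a log2 ratio of -2.79 (-3.19 to -2.42). The library labelled WT gave 7.74 against 41.9 CPM (43 and 3429 UMIs), a log2 ratio of -2.44 (-2.91 to -2.003).

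Slfn9 and Slfn3 went the other way. Slfn9 stood at 27.0 against 8.80 CPM and at 23.6 against 8.07 CPM, 3.06-fold and 2.92-fold higher in dividing cells, which held 32.7% and 16.5% of all Slfn9 UMIs. Slfn3 had 70 and 29 UMIs in dividing cells, 7.01 against 2.15 CPM and 5.22 against 1.40 CPM. Among cells negative for Cd8b1 and Klre1, 70 and 50 of them dividing, neither Slfn9 nor Slfn3 was at least 1.5-fold higher in dividing cells of both libraries. Slfn1 was lower in dividing cells, at 51.1 against 80.8 CPM and at 73.6 against 133 CPM, and so was Slfn2, at 209 against 333 CPM and at 249 against 377 CPM. Slfn8 was 1.62-fold lower in the library labelled Irf4-/- and 1.45-fold lower in the library labelled WT. At least 1.5-fold in both libraries, 3 members were lower and 2 higher, where 4.16% of genes were lower and 14.1% higher.

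Dividing cells were deeper, with medians of 18989 and 14071 UMIs against 9683 and 7195. Among cells over 10000 UMIs, 463 and 265 of them dividing, the log2 ratios were -2.87 and -3.10 for Slfn5, 1.54 and 1.36 for Slfn9, 1.73 and 1.65 for Slfn3 and -0.76 and -0.91 for Slfn1. For Slfn2 they were -0.55 and -0.54, under 1.5-fold, and for Slfn8 -0.65 and -0.78. The directions of all 6 members therefore held among deep cells.

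**Figure D5:**
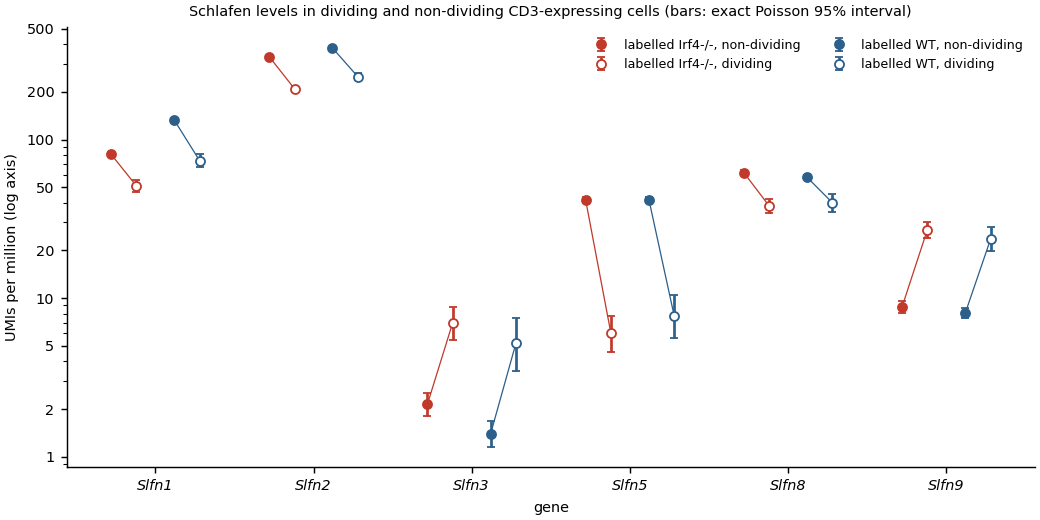
Level of each Schlafen gene (y axis, CPM, log axis) in non-dividing (filled) and dividing (open) CD3-expressing cells of each library, joined by a line, with bars for the exact Poisson 95% interval. Slfn3 and Slfn9 are higher in dividing cells of both libraries and the other 4 genes lower, with the widest gap for Slfn5.

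Other genes of T cell quiescence and interferon signalling, chosen as lists for the known roles of the Schlafen genes, give the setting for these values. Of 21 quiescence genes in CD3-expressing cells, 3 were at least 1.5-fold lower in the library labelled Irf4-/- and 0 higher, where 4.71% of all genes were lower and 6.51% higher, and the median log2 ratio was -0.28 against 0.01 for all genes. The 3 were Il7r, the interleukin-7 receptor (276 and 504 CPM), Pik3ip1, an inhibitor of PI3 kinase (47.7 and 84.9 CPM), and Ccr7, a homing receptor (38.9 and 64.1 CPM). In dividing cells 4 of the 21 were at least 1.5-fold lower than in non-dividing cells of both libraries and 0 higher, where 4.16% of all genes were lower and 14.1% higher. Among them was Pik3ip1, with log2 ratios of -1.25 and -1.19. Of the 21, 0 differed by that much between interferon-high and other cells.

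Of 17 interferon signalling genes in CD3-expressing cells, 2 were at least 1.5-fold higher in the library labelled Irf4-/- and 1 lower, where 6.51% of all genes were higher and 4.71% lower, with a median log2 ratio of 0.01. The higher ones were Usp18, a brake on the interferon receptor (log2 ratio 0.80), and Irf8, a transcription factor (0.67). The lower was Ifngr2, of the interferon gamma receptor (49 and 152 UMIs). Ifnar1 and Ifnar2, the receptor chains of type I interferon, differed by log2 ratios of at most 0.15 between interferon-high and other cells. Of the 17 genes, 8 were at least 1.5-fold higher in interferon-high cells of both libraries, where 4.47% of all genes were, but 3 of the 17 are in the score that chose these cells. Of the 14 that the score did not use, 5 were that much higher. Among the 5, Stat2 had log2 ratios of 1.55 and 1.46 and Irf9 of 1.18 and 1.34.

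The genes whose levels ran most like each member's were ranked by Pearson's r of log2(CPM + 1) over 14 points, the 7 separate populations of each library, among 2360 genes. The points share libraries and depth, and r is given as a description. For Slfn1 they included Tpt1, Cd3g, Arl4c and Themis, with r of 0.98 or 0.99, and 0.97 or above over the 12 points without precursor B cells. Cd3g is one of the CD3 genes that set the gates, so its pattern was fixed in part by them. The 12 points still held other B cells, where Slfn1 was nearly absent. A high r for Slfn1 can thus come from the contrast of T and B cells alone. For Slfn5 Stat3 came first (r = 0.99, and 0.86 without precursor B cells). For Slfn2 Acp5, Ripor2, Txnip, Ltb and Cyld had r between 0.986 and 0.995, and between 0.74 and 0.84 without precursor B cells. For Slfn8 the r of Wdr1 went from 0.98 to 0.38 and that of Trim30a from 0.98 to 0.83, and for Slfn9 the r of Ifi27 from 0.91 to 0.51. The order for these members rests largely on precursor B cells.

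The genes beside and among the Schlafen genes that are not of the family differed less between the libraries than Slfn1. Among CD3-expressing cells the log2 ratios were -0.04 for Rffl, 0.17 for Rad51d, -0.03 for Nle1, 0.11 for AI662270 and 0.06 for Ap2b1. Gm20234, an antisense transcript that overlaps Slfn2, had -0.11. AA465934 had 0.59 on 69 and 55 UMIs, and Fndc8, Unc45b, Unc45bos and Gas2l2 had 0 UMIs. The sources used here do not say whether the counting used the strand, so reads of Slfn2 and Gm20234 may not be told apart. The other Schlafen symbols were scarce. Slfn4 had 21 and 4 UMIs over all kept cells, and 21 and 2 of these were in the 20 and 8 cells outside the T and B cell gates that carried neutrophil genes. Slfn14 had 6 and 10 UMIs, Slfn5os, antisense to Slfn5, 3 and 2, and Slfnl1, which lies on chromosome 4, 1 in each library.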

How the data were processed

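The data were single-cell RNA UMI counts of 2 libraries, 1 labelled Irf4-/- and 1 labelled WT, of sorted mouse bone marrow cells. What the authors deposited are raw UMI counts, 1 per gene and cell barcode, from Cell Ranger 6.1.1 per the file headers. The build was mm10 per the submitters' processing notes. The sources used here do not give the annotation release or the use of strand. Per the labels' protocols, cells were sorted, although the kit description mentions nuclei.

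Barcodes with at least 500 genes, at least 1000 UMIs and under 10% mitochondrial UMIs were kept, 7955 of 8147 and 12367 of 12732. The libraries hold 82599767 and 95031071 UMIs in all. No doublet caller was run. Cells with 3 or more UMIs of both the CD3 and the Cd79 genes (146 and 223) were set apart. Cells were gated by marker counts, not clustered.

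UMIs were summed per library and population and divided by the total (CPM), with exact Poisson intervals. Log2 ratios have exact conditional binomial intervals, and shares of cells Clopper-Pearson intervals. A gene with at least 20 UMIs counts as different past 1.5-fold, in both libraries where a comparison lies within each. Shares are after thinning to 2000 UMIs, which left out 35 and 71 cells. A count of 0 is set to a floor of 3. A UMI count is of transcript ends and is not scaled by gene length.

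The members, gene lists and gates were chosen with earlier results of these data known. Named genes were the 6 members, the other Schlafen symbols, the 5 nearest counted genes on each side, the listed genes past 1.5-fold and the 5 most alike genes of each member with at least 200 UMIs in each library. Some genes that this rule names are not reported here. Stat2, Irf9, Ifnar1 and Ifnar2 were named after their values were seen. The alternatives were other totals, thinning, gates, thresholds and depth bands, and leaving out dividing cells or shared barcodes. Python 3.11.15, numpy 2.4.6, scipy 1.17.1, pandas 2.3.3 and matplotlib 3.10.9 were used, and the scripts were tested on simulated data.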

Additional observations from a re-analysis of the deposited data

Results flagged for a closer look

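Slfn5 differed between the libraries in opposite directions in different populations. The log2 ratio of its level in the library labelled Irf4-/- to that in the library labelled WT was 0.84 (0.42 to 1.28) in B cells other than precursors. It was -0.25 (-0.45 to -0.05) in Cd8b1-negative Klre1-positive cells and -0.33 (-0.50 to -0.16) in Trdc-positive cells. The intervals cover counting error only, and with 1 library per genotype the difference between the populations was not tested. Among cells split at 5000 and 10000 UMIs, the interval of neither of these CD3-expressing populations lay wholly below 0 in any range. In cells of 5000 to 10000 UMIs the ratio was 0.12 (-0.12 to 0.35) in Cd8b1-negative Klre1-positive cells and 0.0018 (-0.22 to 0.22) in Trdc-positive cells. In cells over 10000 UMIs it was 0.87 (0.17 to 1.68) in the former, on 257 and 17 UMIs, and -0.08 (-0.44 to 0.29) in the latter. In the B cells it was 1.01 (0.54 to 1.49) under 5000 UMIs and 1.93 (0.67 to 3.46) at 5000 to 10000 UMIs, on 37 and 6 UMIs. In the B cells over 10000 UMIs it was -1.42 (-4.32 to 1.48), on 3 and 3 UMIs, too few to give a direction. All B cells other than precursors had median depths of 4071 and 2962 UMIs in the libraries labelled Irf4-/- and WT.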

How the results depend on the processing

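No paired analysis was possible because there was 1 library per genotype and no shared replicate number, and no replicate could be left out. Slfn1 stayed lower in the library labelled Irf4-/- under all 11 alternatives, with log2 ratios from -0.80 (total without mitochondrial, ribosomal, receptor segment and immunoglobulin genes) over -0.70 (thinned cells) to -0.65 (populations weighted by their WT shares). Slfn2 gave -0.27, -0.19 and -0.26 under these same settings, -0.20 as a mean over cells and -0.18 without dividing cells. In all CD3-expressing cells of 5000 to 10000 UMIs together its ratio turned to 0.059, though within each population the interval included 0. Slfn5 also turned there, to 0.48, and Slfn9 in Cd8b1-negative Klre1-negative cells turned to -0.65 after thinning, from 0.45. The cause was not tested. In Cd8b1-negative Klre1-positive cells the Slfn1 log2 ratio went from -0.51 to -0.28 after thinning. Past 2-fold, 0 members were lower over all CD3-expressing cells, since Slfn1 was 1.68-fold lower there. The count of members higher in interferon-high cells of both libraries was 6 under 4 of the 6 alternatives tried. It was 5 with interferon-high cells as the highest 10% and with thinned cells, where Slfn3 in the library labelled Irf4-/- had log2 ratios of 0.55 and 0.21. Without thinning, Slfn1 was detected in 43.6% and 52.4% of CD3-expressing cells and Slfn2 in 88.4% and 86.0%, so the order of the Slfn2 shares turned (45.7% and 50.04% after thinning). Leaving out dividing cells, or the 25 barcodes shared by the libraries, was chosen after seeing the data. Depth limits Slfn3 and Slfn9, at 0.508% and 1.75% of thinned cells in the library labelled Irf4-/-.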
